A study of Mus musculus with 18 samples.

Results

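The transcripts described here encode factors of the primitive streak and early mesoderm, 9 genes chosen by symbol: T, Mixl1, Wnt3, Mesp1, Gsc, Lhx1, Tbx6, Evx1 and Foxc1. Of the 18194 genes that the array annotation names with 1 symbol per probe set, 8 were these, measured by 10 probe sets. T, the founding T-box gene also called brachyury, has no named probe set in the annotation used here and was not analysed. The samples were 18 arrays of AB1 mouse embryonic stem (ES) cells, Wt or CYP26A1-/- (called knockout below), a genotype without a working gene for the P450 enzyme that clears retinoic acid (RA). Each genotype had control cells with leukemia inhibitory factor (LIF) at 8 h on 3 arrays, 100 nM RA with LIF for 8 h on 3 arrays and 100 nM RA with LIF for 72 h on 2 arrays. Control cells deprived of LIF were also sampled at 8 h, on 1 array per genotype. The labels give no control at 72 h, so RA and time in culture cannot be told apart at that point, and they do not say that replicates were separate cultures, so p-values measure only the spread between these arrays.

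During gastrulation epiblast cells pass through the primitive streak and become mesoderm and definitive endoderm. Wnt and Nodal signals switch on the streak genes, and the streak's factors then divide the emerging cells into anterior, paraxial and posterior fates. ES cells kept with LIF resemble the epiblast before that step, and RA is known to drive them toward other fates and to restrain streak genes in several settings.

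In these cells the streak factors were close to the array's background in every group. Signal is in arbitrary units in which each array's trimmed mean is 500, and values under 50 were set to that floor and have no order among themselves. Of the 180 values of the 10 probe sets, 42 lay above the floor, or 23.3%, against 55.2% of the values of all probe sets. Only 4 of the 180 reached 100 units, a level that 42.2% of all values reached. Probe sets of odorant receptors, genes that ES cells are not known to use, gave a scale for background: the median of their mean signals was 18.9 units over 44 probe sets, and 11.1% of their values were above the floor. This reference was chosen after the data were seen. Cyp26a1, the targeted gene, read 9.81 to 84.2 units on the control arrays of both genotypes. At 8 h of RA it read 637, 1695 and 691 in wild type and 193, 216 and 193 in knockout, and at 72 h 3402 and 3211 in wild type and 2873 and 3075 in knockout. Whether its probe set lies in the disrupted part was not tested, so its signal at 72 h does not check the genotype labels. In bulk RNA a few cells with a high level and many cells with a low level cannot be told apart.

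**Figure D1:**
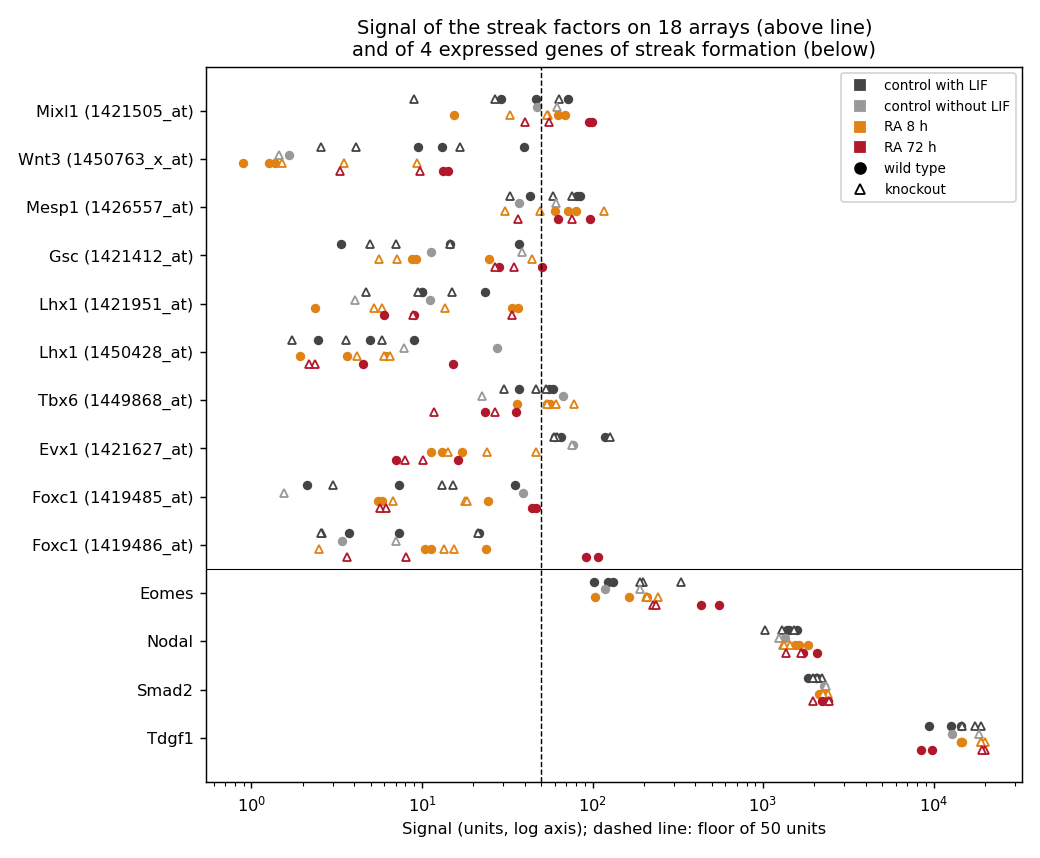
Signal in units on a log axis for the 10 probe sets of the streak factors and, under the line, for 4 genes of streak formation, with 1 symbol per array (18 arrays, colour by treatment, circles wild type, open triangles knockout) and a dashed line at the floor of 50 units. The streak factors sit around or left of the floor, at most 127 units, while Nodal sits between 1022 and 2071 units.

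Evx1 was the member whose arrays split at the floor by RA, though no comparison within 1 genotype called it in the main fit. It encodes an even-skipped homeobox factor of the posterior streak. The gene lies on chromosome 6 and has 1 probe set. In wild type it read 60.0, 65.2 and 119 units on the 3 control arrays, and 76.5 without LIF. After 8 h of RA it read 13.0, 17.2 and 11.4 units, and after 72 h 7.02 and 16.2. The groups with and without RA did not overlap in wild type. In knockout cells it read 62.1, 127 and 59.7 units in control cells and 75.8 without LIF. It then read 14.2, 46.3 and 24.2 after 8 h of RA and 10.2 and 7.92 after 72 h. In both genotypes, then, all 8 arrays without RA were above the floor and all 10 arrays with RA were at it. This pattern was held by 2 of 18194 genes, or 0.011%, the other being Tnfsf11, and 3 genes had the reverse pattern. The pattern was read from the values of Evx1 itself, so Evx1 met it by construction. The 18194 genes also include some at the floor on every array, such as Wnt3. No test goes with that count, and it does not measure an effect of RA.

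The size of the difference was bounded by the floor. On the floored log2 scale Evx1 was at least 1.55-fold lower after 8 h of RA in wild type, a log2 difference of -0.63 ± 0.30 (SE, 3 arrays against 3), with limma's adjusted p = 0.650. In knockout cells it was at least 1.56-fold lower, -0.64 ± 0.30, with limma's adjusted p = 0.578. At 72 h the same bounds held with limma's adjusted p = 0.193 in wild type and 0.198 in knockout. None of these 4 tests passed the threshold of 0.05. Evx1 passed the filter, 100 units on at least 2 arrays, only through 2 control arrays, so the direction of its difference was not free.

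Whether Evx1 was called depended on the scale and on averaging the genotypes, an average chosen after the data were seen. Averaged over both genotypes, Evx1 was lower by -0.64 ± 0.24 at 72 h, with limma's adjusted p = 0.0453, a rule that called 40% of all genes. That call was lost without any 1 of the 4 arrays at 72 h of RA (limma's adjusted p = 0.0970 to 0.109), and without wild-type control replicate 3 or knockout control replicate 2 Evx1 no longer passed the filter. It was also lost with a replicate block (limma's adjusted p = 0.0666), a floor of 100 units (0.312), no filter (0.0716), only the arrays of the groups compared (0.0969) and every probe set fitted separately (0.0568). Averaged at 8 h it was lower by -0.64 ± 0.21, with limma's adjusted p = 0.147, where 3.36% of genes were called. With log2(signal + 32) in place of the floor, Evx1 passed the threshold at 72 h in wild type, -1.35 ± 0.35 with limma's adjusted p = 0.00992, and in knockout, -1.44 ± 0.35 with limma's adjusted p = 0.00708, in fits that called 24% and 22.7% of genes. The averages on that scale were -1.09 ± 0.22 at 8 h (limma's adjusted p = 0.00877, 3.49% of genes called) and -1.39 ± 0.24 at 72 h (limma's adjusted p = 0.000326, 39.5% called). These sizes rest on RA arrays that all read under 50 units, in the range of background, and on a gene that entered the fit through its high control arrays, so they describe the scale and do not measure how far Evx1 went down.

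The genotypes did not differ detectably for Evx1. Its mean was 81.4 ± 32.6 units in wild-type control cells and 83.0 ± 38.3 in knockout control cells (SD, n = 3 each), and the log2 difference was 0.01 ± 0.30. After 8 h of RA every array of both genotypes was at the floor, so no order between 13.9 ± 3.01 and 28.3 ± 16.4 units can be read. Removing LIF left Evx1 at 76.5 and 75.8 units, inside the range of the control arrays, a log2 difference of -0.03 ± 0.40 over both genotypes. The LIF labels of replicate 1 were doubtful. Socs3, a direct target of LIF signalling, read 367 and 215 units on its control arrays labelled with LIF and 3800 and 4551 on those labelled without, against 2628 to 6001 on the other 14 arrays. All 4 of these arrays lacked RA and had Evx1 above the floor, so the pattern of Evx1 holds under either labelling.

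The 250 bases before the start of Evx1 (RefSeq, GRCm38.p6, plus strand, chr6:52313248-52313497) are shown because the arrays of Evx1 split at the floor by RA. A match to the T-box core is in capitals.

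Evx1: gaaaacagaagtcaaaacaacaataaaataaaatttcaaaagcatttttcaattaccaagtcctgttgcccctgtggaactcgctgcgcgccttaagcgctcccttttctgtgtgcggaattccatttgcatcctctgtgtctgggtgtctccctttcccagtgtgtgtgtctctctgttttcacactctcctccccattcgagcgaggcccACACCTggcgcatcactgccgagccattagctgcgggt

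Both strands were searched for AGGTGT, the core that T-box factors bind, for CTTTGA and CTTTGT, bound by TCF/LEF factors of the Wnt pathway, for AATNNACA, bound by the Nodal effector FoxH1, and for AGGTCA, the core that retinoid receptors bind, with its direct repeats 2 or 5 bases apart. Evx1 held AGGTGT once, on the minus strand, a motif that 11.8% of 32851 such windows hold. It held no AGGTCA, which 14.0% of windows hold, and this says nothing of RA receptors elsewhere in the locus.

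Foxc1, a forkhead factor of paraxial and head mesoderm, showed the other clear pattern. The gene lies on chromosome 13 and has 2 probe sets. The brighter one read 107 and 91.6 units on the 2 wild-type arrays at 72 h of RA and 2.49 to 23.7 on the other 16 arrays. It was thus above the floor only in wild type at 72 h. The dimmer probe set read 43.9 and 46.9 units on those arrays and stayed at the floor throughout. The pattern of the brighter probe set was shared by 44 of 18194 genes, 0.242%, among them its paralog Foxc2, which also acts in paraxial mesoderm, and Tbx2, a T-box repressor. Foxc2 read 86.8 and 197 units on those 2 arrays, and Tbx2 read 61.4 and 117. This pattern was read from the values of Foxc1 itself, so its count is a description and not a test.

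Foxc1 reached 100 units on 1 array only and so was not tested in the main fit. Without the filter it was at least 1.98-fold higher at 72 h than in wild-type control cells, with limma's adjusted p = 1.62e-07 (14.1% of genes called), and equally above 8 h of RA, with limma's adjusted p = 1.81e-07 (12.6% called). Without the filter knockout was lower than wild type at 72 h, -0.99 on the log2 scale, with limma's adjusted p = 6.73e-07 (2.92% called). In these fits every array of Foxc1 but 2 sat at the same floor value, so the standard error does not measure the spread of its signal.

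The window before Foxc1 (RefSeq, GRCm38.p6, plus strand, chr13:31806396-31806645) is shown for contrast with that of Evx1. Its GC content is 70.8%, against 49.6% for Evx1 and a median of 52.4% over all windows, and it held none of the motifs searched.

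Foxc1: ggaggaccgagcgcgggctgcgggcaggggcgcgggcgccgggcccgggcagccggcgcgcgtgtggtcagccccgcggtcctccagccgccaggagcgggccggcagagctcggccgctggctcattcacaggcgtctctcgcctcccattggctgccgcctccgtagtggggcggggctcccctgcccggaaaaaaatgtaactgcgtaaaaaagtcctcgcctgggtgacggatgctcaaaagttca

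**Figure D2:**
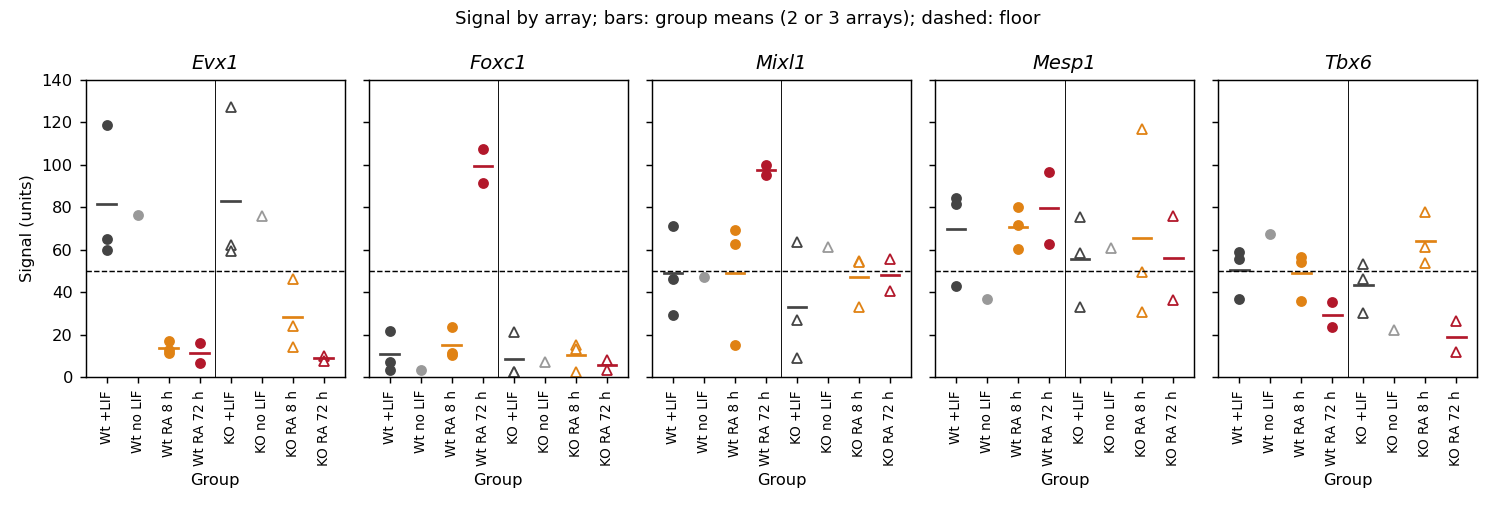
Signal in units by array for Evx1, Foxc1, Mixl1, Mesp1 and Tbx6 in the 8 groups (circles wild type, open triangles knockout, bars group means where a group has 2 or 3 arrays, dashed line the floor of 50 units). Evx1 is above the line only without RA, and Foxc1 only in wild type at 72 h of RA.

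Mixl1, a paired-type homeobox gene switched on by Nodal in the streak (chromosome 1), was highest in wild type at 72 h. The control arrays read 29.2, 46.5 and 71.4 units in wild type and 9.03, 26.9 and 63.8 in knockout. After 8 h of RA they read 62.6, 15.3 and 69.4 in wild type and 33.0, 55.0 and 54.2 in knockout. At 72 h wild type read 99.8 and 95.2 units, above all its other arrays, and knockout read 40.5 and 55.7, inside the range of its controls. Mixl1 never reached 100 units and was not tested in the main fit. Without the filter it was higher at 72 h than in wild-type control cells by 0.79 ± 0.18 on the log2 scale, with limma's adjusted p = 0.0126 (14.1% of genes called). Without the filter it was also lower in knockout than in wild type at 72 h, -0.89 ± 0.19, with limma's adjusted p = 0.0351 (2.92% called). The difference between the genotypes' responses, -0.83 ± 0.25, did not pass, with limma's adjusted p = 0.393. Values under the floor, such as 29.2 and 46.5 units in wild-type control cells, were set to it. The standard errors of these differences therefore do not measure the full spread of Mixl1 signal.

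Mesp1, a basic helix-loop-helix factor of nascent and cardiac mesoderm (chromosome 7), was above the floor on 12 of 18 arrays, the most of any member, with values from 30.8 to 117 units and a median of 61.8. In wild type it read 84.3, 43.2 and 81.6 units in control cells, 80.3, 60.2 and 71.5 after 8 h of RA and 62.9 and 96.7 after 72 h. In knockout it read 33.0, 75.5 and 58.3 in control cells, 30.8, 49.5 and 117 after 8 h and 36.4 and 75.8 after 72 h. The groups overlapped in both genotypes. Its promoter window (RefSeq, GRCm38.p6, minus strand, chr7:79793591-79793840) is shown because it held the most motif matches of the 3 windows printed, 2 of CTTTGA and 1 of AGGTGT, in capitals on whichever strand they lie. CTTTGA is held by 13.8% of all windows.

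Mesp1: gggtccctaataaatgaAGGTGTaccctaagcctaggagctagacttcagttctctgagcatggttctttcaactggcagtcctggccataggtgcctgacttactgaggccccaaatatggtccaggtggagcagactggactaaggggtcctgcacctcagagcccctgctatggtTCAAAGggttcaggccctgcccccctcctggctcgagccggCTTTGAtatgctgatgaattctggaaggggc

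Tbx6, a T-box factor that directs cells to paraxial mesoderm rather than neural fate (chromosome 7), was at the floor on every array at 72 h of RA. In wild type it read 58.9, 37.1 and 55.6 units in control cells, 36.0, 56.6 and 54.1 after 8 h of RA and 35.6 and 23.5 after 72 h. In knockout it read 30.4, 53.4 and 46.5 in control cells, 61.2, 54.0 and 77.6 after 8 h and 26.7 and 11.8 after 72 h. All 4 arrays at 72 h were at the floor, and so were 3 of the 6 control arrays with LIF, so the groups overlapped on that scale. Tbx6 was not tested in the main fit. Without the filter its log2 difference from control at 72 h was -0.13 ± 0.12 in wild type, with limma's adjusted p = 0.649. In knockout it was -0.03 ± 0.12 at 72 h, with limma's unadjusted p = 0.801. Neither passed the threshold, so no fall at 72 h was shown. Knockout cells at 8 h of RA gave 0.31 ± 0.11 over control, with limma's adjusted p = 0.493.

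The other members were not detected above background. Wnt3, the ligand that starts streak formation (chromosome 11), stayed at 39.7 units or less and at the floor on all 18 arrays. Gsc, the goosecoid homeobox factor of the anterior streak and organizer (chromosome 12), was above the floor on 1 array, 50.8 units in wild type at 72 h. Both probe sets of Lhx1, a LIM homeobox factor of anterior mesendoderm (chromosome 11), stayed at the floor, at most at 36.7 and 27.7 units. A transcript at such signals may be absent or below what these probe sets can show.

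No member was called in any of the 12 comparisons of single groups, responses or LIF, and Evx1 was the only member tested. The LIF comparison had its own fit of 8 control arrays and 10476 genes, and the others came from the main fit of 16 arrays and 11388 genes. The average over genotypes at 72 h, given above, is not among the 12. After 8 h of RA 0.904% of genes were called in wild type and 0.957% in knockout, or 103 and 109 genes. Those counts were 58 to 135 and 36 to 75 with 1 array left out, 13 and 62 with only the arrays compared, and 275 and 342 with a replicate block. At 72 h against control the shares were 24.7% (16.1% higher, 8.64% lower) in wild type and 23% (14.8% higher, 8.26% lower) in knockout. At 72 h against 8 h of RA they were 22.3% and 19.2%. Between genotypes 4.64% of genes were called in control cells, 4.61% at 8 h of RA and 4.07% at 72 h, or 528, 525 and 463 genes. These counts went down to 253, 248 and 101 with 1 array left out, the last without wild-type replicate 2 at 72 h, and up to 1069, 1114 and 1004 with a replicate block. Without both doubtful replicate 1 control arrays the first was 139. The genotypes' responses differed for 0% of genes at 8 h, where limma called 0 and 211 had an unadjusted p under 0.05, and for 0.342% at 72 h, or 0.676% without the filter. Without LIF limma called 0% of 10476 genes, with 285 at an unadjusted p under 0.05. With the doubtful LIF labels of replicate 1 exchanged it called 192 genes, and no member. The unadjusted p of Evx1 was above 0.05 in all 12 comparisons. No gene could be named by likeness to a member, since none reached 100 units on 6 arrays.

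Some genes that act upstream of the streak factors were well above background, and others were not. Nodal, the TGF-beta ligand that induces the streak, ran from 1022 to 2071 units, and its coreceptor Tdgf1 from 8444 to 20124. The effectors Smad2 and Ctnnb1 ran from 1843 to 2437 and from 15016 to 21506 units. Fgf8, a streak ligand, stayed between 2.32 and 9.62 units. The Wnt ligands Wnt3a and Wnt8a ran from 19.4 to 142 and from 8.30 to 113 units, above the floor on 16 and 10 of 18 arrays. Eomes, a T-box factor of the anterior streak that also marks trophectoderm, was above the floor on all 18 arrays, from 102 to 551.

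Of 16 other streak genes 11 were tested, and in wild type at 72 h 5 rose and 2 fell, with a median log2 difference of 0.78 against 0.06 over all genes tested. Of all genes tested, 24.7% were called in that comparison. This list, like those below, was chosen with earlier results of these data known, so its median is a description and not a test. Among the rises in wild type, Tbx3 lost its call under 6 of 17 alternatives and Snai1 under 2 of 17. Hoxb1, a Hox gene of the posterior streak and hindbrain that RA induces directly, rose at least 10.1-fold (3.34 ± 0.29, limma's adjusted p = 1.23e-06). Eomes rose from 102, 123 and 131 units to 551 and 431, a log2 difference of 2.04 ± 0.29. Bmp4, a ligand that promotes posterior streak fates, and Fgf4, an ES cell ligand needed to leave pluripotency, fell by 2.15 ± 0.21 and 1.80 ± 0.18. In knockout 3 rose and 2 fell, beside 23% of all genes called, with a median of 0.21 against 0.06. Amot, a regulator of cell polarity, rose by 3.34 ± 0.38 there, Hoxb1 rose at least 6.90-fold, and Bmp4 and Fgf4 fell by 1.55 ± 0.21 and 1.64 ± 0.18. Eomes did not pass in knockout, 0.01 ± 0.29.

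Of 13 measured paraxial mesoderm genes 7 were tested. In wild type 1 was called and in knockout 2, beside the shares of 24.7% and 23% over all genes. In wild type at 72 h Meox1, a somite homeobox gene, rose at least 5.34-fold and none fell. In knockout Tcf15, a somite helix-loop-helix factor, rose 2.01-fold and Dll3, a Notch ligand of segmentation, fell by 0.69 ± 0.20. The call of Tcf15 was lost without knockout control replicate 2 or either knockout array at 72 h, with limma's adjusted p at most 0.136 over its alternatives. That of Dll3 was lost without knockout control replicate 1 or 3 or either knockout array at 72 h, with limma's adjusted p at most 0.145. Meox1 was lower in knockout than in wild type at 72 h, by -1.53 ± 0.35 with limma's adjusted p = 0.0226, a call lost without either knockout array or wild-type replicate 2 at 72 h (limma's adjusted p at most 0.312 over its alternatives).

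Of 16 cardiac, lateral plate and blood genes 10 were tested and 3 rose in wild type at 72 h. They were Gata4, by 2.01 ± 0.38, Isl1, by 1.13 ± 0.28, and Foxf1, by 1.13 ± 0.29, factors of heart and endoderm, of the second heart field and of lateral plate. Isl1 lost its call without wild-type replicate 1 at 72 h and with a floor of 100 units, with limma's adjusted p at most 0.106 over its alternatives. Foxf1 lost it with the mean of all its probe sets (limma's adjusted p = 0.0941). In knockout Gata4 rose by 3.04 ± 0.38, and it was the 1 gene called. Of 11 measured node and anterior mesendoderm genes 7 were tested, and 3 rose in wild type against 4 up and 1 down in knockout. The counts of both lists stand beside shares of 24.7% in wild type and 23% in knockout called over all genes at 72 h. Foxa2, a forkhead factor of node and endoderm, rose by 2.39 ± 0.26 in wild type and by at least 2.73-fold in knockout. Sox17, an endoderm factor, and Dkk1, a Wnt inhibitor, rose in both genotypes, Sox17 by 2.84 ± 0.63 in wild type and at least 13.2-fold in knockout and Dkk1 by 2.30 ± 0.45 and 3.31 ± 0.45.

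**Figure D3:**
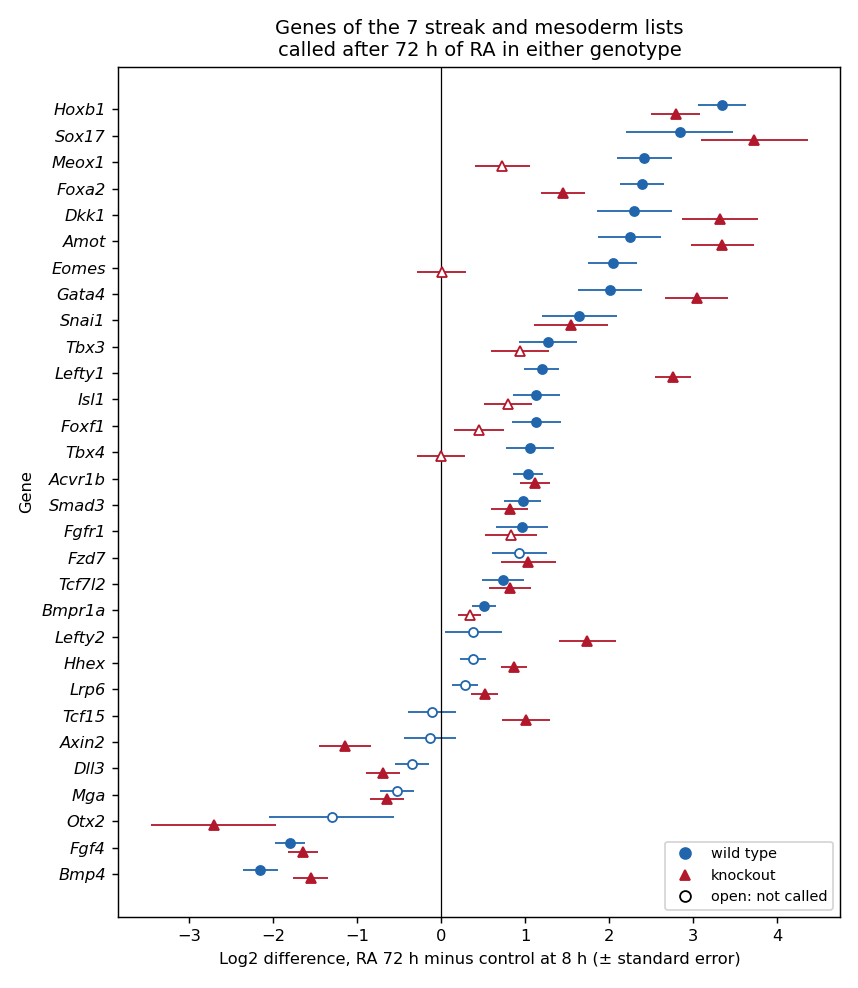
Log2 difference between 72 h of RA and control at 8 h, with its standard error, for the 30 genes of the 7 lists called in either genotype (blue circles wild type, red triangles knockout, open symbols not called). Wild type has 21 called genes and knockout 22, with 13 called in both, and Hoxb1, Sox17, Foxa2, Dkk1 and Amot lie to the right in both.

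Of the 17 measured Wnt, Nodal and FGF components, all tested, 6 rose in wild type at 72 h, and 7 rose and 1 fell in knockout. The shares called over all genes were 24.7% and 23%. Lefty1, a Nodal antagonist, rose by 1.20 ± 0.21 in wild type and by 2.76 ± 0.21 in knockout. It was lower in knockout than in wild type in control cells, by -1.34 ± 0.19 (limma's adjusted p = 0.00150), and at 8 h of RA, by -1.59 ± 0.19 (limma's adjusted p = 0.000384). Tdgf1 was higher in knockout at 72 h by 1.11 ± 0.16, with limma's adjusted p = 0.00104. Of 3 T-box family genes tested, Tbx4, a limb gene, rose in wild type and Mga, a repressor with a T-box, fell in knockout at 72 h. The call of Tbx4 was lost without wild-type control replicate 2, with log2(signal + 32), with quantile normalization and with only the arrays compared, and that of Mga without knockout control replicate 1 or 2 or knockout replicate 2 at 72 h, with limma's adjusted p at most 0.103 and 0.315 over their alternatives. None of the 6 tested paralogs of the members was called in any comparison. At 8 h of RA no gene of any of the 7 lists was called against control in either genotype.

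Summed smooth muscle and trophectoderm markers were highest in wild type at 72 h, the group in which Foxc1 and Mixl1 were highest. Endoderm markers rose in both genotypes at 72 h, and fibroblast sums were alike in the genotypes there. Summed over 6 smooth muscle and mesenchyme markers, signal was 7297 and 9798 units on the wild-type arrays at 72 h, 453 to 547 in wild-type control cells and 848 and 1118 in knockout at 72 h. Of these 6, 5 rose in wild type and 3 rose in knockout at 72 h, and 0 were at the floor on both wild-type arrays there. Trophectoderm markers, a list that holds Eomes, summed to 12658 and 13596 units in wild type at 72 h. The sums were 1313 to 2467 in wild-type controls and 3370 and 3846 in knockout at 72 h. Eomes itself read 551 and 431 units in wild type at 72 h, so other markers made up most of the sums there. Whether these sums are specific to trophectoderm was not tested. Of 6 trophectoderm markers tested, 4 rose at 72 h in wild type and 2 in knockout. Endoderm markers are a list that holds Gata4 and Sox17. At 72 h they summed to 24668 and 27852 units in wild type and 20769 and 20801 in knockout. In control cells they summed to 4080 to 10656 units in wild type and 2571 to 4416 in knockout. Of 10 tested endoderm markers 9 rose in each genotype, and 4 were lower in knockout than in wild-type control cells. Of the 8 ES cell markers 3 fell at 72 h in each genotype, and none was at the floor on all arrays of any group. Over all genes tested, 24.7% were called at 72 h in wild type and 23% in knockout. Fibroblast markers summed to 6093 and 6406 units in wild type at 72 h, 3581 to 4815 in its controls and 6226 and 6449 in knockout at 72 h. Only 2 of the 8 fibroblast markers were tested, and 1 rose and 1 fell at 72 h in each genotype. Of these 8 markers 1 was at the floor on both wild-type arrays at 72 h, against 5 on all arrays in control cells and in knockout at 72 h. Of 4 neural markers tested, 0 rose and 1 fell at 72 h in wild type, and 1 rose and 0 fell in knockout. The part of these cell types in the members' values was not tested.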

How the data were processed

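Total RNA of 18 samples was measured, each on 1 single-colour array. As deposited, the values are intensity on a linear scale, 1 per probe set and array, made with MAS5 per the submitters' processing notes, whose version is not given in the sources used here. Every array had a trimmed mean of 500 (2% off each end). The table holds 45101 probe sets: 34958 have 1 symbol, 932 have several and 9211 are unnamed, and the last 2 kinds were not used. Symbols came from the platform annotation, and chromosomes and promoter sequences from RefSeq (GRCm38.p6), whose promoter table held 8 of the 9 genes. Mixl1 was not among them.

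Values were rescaled to a trimmed mean of 500, floored at 50 units and logged to base 2. The probe set with the highest mean stood for its gene, and genes with 100 units on at least 2 arrays were tested. limma 3.58.1 in R 4.3.3 (lmFit, eBayes with an intensity trend) fitted the 16 arrays of the 6 replicated groups together, with 10 residual degrees of freedom, and the 8 control arrays for LIF with a genotype term, with 5. P-values were adjusted by Benjamini-Hochberg over every gene of a fit, with 0.05 as the threshold. A fold against a group wholly at the floor is a lower bound. The fit was run on simulated data with changes planted only in genes brighter than any member, so that run does not check the fit for the members. Arrays carry no count depth: their number, and signal over background, limit the precision. No 2 arrays held identical values, and the highest correlation between 2 was 0.985.

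Named were all members, and of each gene list at most the 4 called genes with the smallest adjusted p in a comparison. Tbx3 and Snai1 were named beside these for their lost calls. Members and lists were chosen with earlier results of these data known. Alternatives were another floor, log2(signal + 32), other filters and normalizations, a replicate block, and each array left out.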

Additional observations from a re-analysis of the deposited data

Results flagged for a closer look

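Among the members and the chosen lists, limma called a difference between the genotypes' responses to 72 h of RA for Eomes and Lefty1, out of 39 genes in the main fit, and for Foxc1 without the filter, out of 123. Eomes, from 102 to 131 units in wild-type control cells to 431 and 551 at 72 h, gave a knockout minus wild-type response of -2.04 ± 0.41 on the log2 scale, with limma's adjusted p = 0.0497, and 17 of 22 alternatives lost the call. In knockout Eomes read 331, 197 and 189 units in control cells and 228 and 237 at 72 h. Its knockout controls were higher than wild-type controls by 0.97 (limma's adjusted p = 0.0463, lost under 13 of 18 alternatives), so the baseline enters this difference. Lefty1 gave a response larger in knockout by 1.56 ± 0.30, with limma's adjusted p = 0.0341, and 15 of 22 alternatives lost it. Foxc1 gave -0.99 ± 0.06, with limma's adjusted p = 9.90e-06, when the filter on dim genes was dropped, the 1 setting that tested it, and its standard error rests on values at the floor. No group had 4 or more arrays, so single arrays were not examined as outliers within groups.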

How the results depend on the processing

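Over 14 counts of members called, 246 of 265 alternative values equalled the main count and 19 moved. These numbers do not measure robustness, because part of the sameness was fixed in advance. Only Evx1 passed the main filter. It was untested with a filter at 200 and without wild-type control replicate 3 or knockout control replicate 2, where a count of 0 could not move. Against control at 72 h the count went from 0 to 1 (Evx1) with log2(signal + 32) in each genotype, and without the filter to 2 (Foxc1 and Mixl1) in wild type. Without the filter it also went to 2 for 72 h against 8 h of RA in wild type and for knockout against wild type at 72 h, and to 1 (Foxc1) for the difference between responses. Averaged over genotypes at 8 h it went from 0 to 1 (Evx1) with log2(signal + 32) and with the LIF labels of replicate 1 exchanged. These averages were added after seeing the data. Averaged at 72 h it went from 1 to 0 with a floor of 100, with a filter at 200, which left Evx1 untested, with only the arrays of the groups compared and with every probe set fitted separately. Leaving out 1 array gave 0 to 1 there. With a replicate block the averaged count at 72 h was also 0, and no other count moved. The numbers are only partly in the labels, and deviations of same-numbered arrays correlated at 0.0319 to 0.504 (median 0.262, 36 pairs). For arrays of other groups with other numbers the range was -0.407 to 0.220 (median -0.135, 70 pairs). Same-numbered arrays thus shared some variation that the main fit does not model. Without the filter Evx1 itself lost the averaged call at 72 h (limma's adjusted p = 0.0716) while Foxc1 gained it. Of 1644 alternative values for 105 single-gene results, 1389 kept their direction and side of the threshold, 243 lost the call, 12 gained it and 0 reversed. For LIF, the block, the own-array fit and the fit without both doubtful arrays were not run. Signals near background limit every member here.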
